A study of Homo sapiens with 4 samples.

Results

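A long noncoding RNA (lncRNA) gene is transcribed into RNA that is not read as a protein template, and many such genes known only from their transcripts have an Ensembl identifier and no gene symbol. Here lncRNA genes of HEK293T cells were chosen by 2 labels, the lncRNA biotype and the lack of a symbol in the deposited table, and by 1 measured value, a mean normalized count of at least 200 over all libraries. The rule gave 146 of 3619 tested lncRNA genes without a symbol, among 23333 tested genes of all kinds. HEK293T is an established line from human embryonic kidney that expresses the large T antigen of SV40. Wildtype cells, fixed with formaldehyde in both groups, were divided into nuclei and cytoplasm, with 2 biological replicates of each fraction. Total RNA depleted of ribosomal RNA was sequenced from 400 ng per library as paired reads of 100 nucleotides, so that the values say nothing of copies per cell. The normalized counts, scaled by DESeq2 size factors, had a sum of 18136040 for the nucleus and of 28705052 for the cytoplasm, and taken as shares of these sums every log2 fold change given here would be lower by 0.66. Reads in introns were counted together with reads in exons. GENCODE 44, a later annotation on the same hg38 assembly, held 143 of the 146 genes, all as lncRNA, and had given a symbol to 36 of them.

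RNA polymerase II transcribes most lncRNA genes, and their RNAs are often capped, spliced and given a poly(A) tail as mRNAs are. Several well-known lncRNAs stay in the nucleus at the site of transcription or in nuclear bodies, while others are exported and act in the cytoplasm. A few short noncoding RNAs made by RNA polymerase III lie in the same stretches of genome as lncRNA genes, and 2 of these bear on the results below.

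The pair of genes with the highest means each contained a known short RNA on the same strand. ENSG00000282885 (chr14:49861176-49868192, minus strand) has 4 exon blocks, and 1 of them holds all 300 bases of RN7SL2, the 7SL RNA of the signal recognition particle that targets secretory proteins to the endoplasmic reticulum. ENSG00000259001 (chr14:20343048-20343685, minus strand) is 638 bases long, has 1 exon block and holds all 333 bases of RPPH1, the RNA of ribonuclease P that trims tRNA precursors. Its first bases also overlap the start of PARP2, a protein-coding gene on the opposite strand. The edges of both short RNAs on hg38 are shown because they separate the short RNA from the rest of each gene. In GENCODE 44, 5409 bases of ENSG00000282885 and 234 bases of ENSG00000259001 lie outside every other gene. The authors removed stretches shared by genes before counting, so that reads wholly inside an annotated short RNA would not be counted for the lncRNA gene, and whether reads that reach across an edge were counted was not tested. Lower case marks bases of the lncRNA gene outside the short RNA and capitals mark the first or last 20 bases of the short RNA.
ENSG00000282885, 5′ edge of RN7SL2 (chr14:49862830-49862914): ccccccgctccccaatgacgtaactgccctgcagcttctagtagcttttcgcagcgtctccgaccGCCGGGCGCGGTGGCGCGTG
ENSG00000282885, 3′ edge of RN7SL2 (chr14:49862520-49862569): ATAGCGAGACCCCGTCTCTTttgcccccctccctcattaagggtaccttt
ENSG00000259001, 5′ edge of RPPH1 (chr14:20343388-20343614): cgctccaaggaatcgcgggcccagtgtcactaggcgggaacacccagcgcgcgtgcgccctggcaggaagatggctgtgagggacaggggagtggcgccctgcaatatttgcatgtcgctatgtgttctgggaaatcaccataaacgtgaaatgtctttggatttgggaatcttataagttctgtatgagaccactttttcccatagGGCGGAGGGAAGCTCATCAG
ENSG00000259001, 3′ edge of RPPH1 (chr14:20343048-20343094): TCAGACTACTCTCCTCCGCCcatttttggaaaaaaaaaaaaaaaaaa

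**Figure D1:**
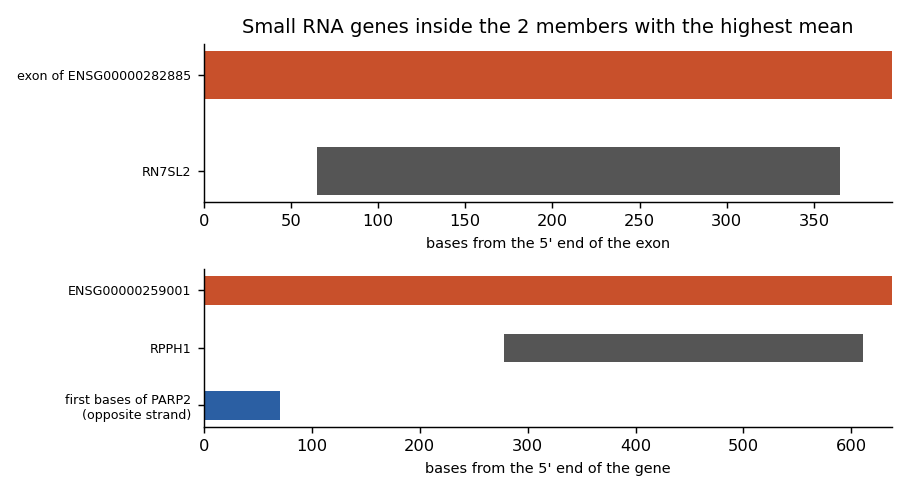
Position of RN7SL2 and RPPH1 (grey) inside the exon of ENSG00000282885 and inside ENSG00000259001 (orange), in bases from the 5′ end of the exon or gene, with the overlapping first bases of PARP2 in blue. RN7SL2 leaves 65 bases of its exon before it and 30 after it.

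ENSG00000282885 had a mean normalized count of 496432 and ENSG00000259001 a mean of 379449, against a median of 387 over all 146 genes. Both were called cytoplasmic. The log2 fold change, cytoplasm over nucleus throughout and above 0 for a gene with more normalized counts in the cytoplasm, was 4.54 ± 0.15 (SE) for ENSG00000282885 (DESeq2 adjusted p = 9.73e-208). It was 3.88 ± 0.46 (SE) for ENSG00000259001 (DESeq2 adjusted p = 7.29e-17), the widest error of the 146 genes. The other 7SL genes RN7SL1 and RN7SL3 were at 4.65 each. Where in ENSG00000282885 and ENSG00000259001 the reads lay was not tested, and neither gene had a recovered count per library. All 146 genes held 5.91% of the normalized counts of the cytoplasm and 1.35% of those of the nucleus, and without these 2 genes the shares were 0.118% and 0.862%.

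Most of the 146 lncRNA genes were called nuclear. With the study's threshold, a DESeq2 adjusted p of 0.01 in the deposited table, 115 of 146 (78.8%) were called nuclear and 17 (11.6%) cytoplasmic, and 14 passed in neither direction. Among all tested genes 26.5% were called nuclear and 25.9% cytoplasmic, and among the 11087 tested genes with the same minimum mean 35.8% and 44.0%. The median log2 fold change of the 146 was -2.94, beside -2.25 for the 323 tested lncRNA genes with a symbol and the same minimum mean, -1.01 for the 3473 lncRNA genes without a symbol below it, and 0.27 for 10409 protein-coding genes above it. Of the lncRNA genes with a symbol 73.7% were called nuclear and 14.9% cytoplasmic. The difference between the classes was not tested. Since the mean that chose the genes pools both fractions, a gene that is high in a single fraction can pass it, and these counts are given as a description.

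**Figure D2:**
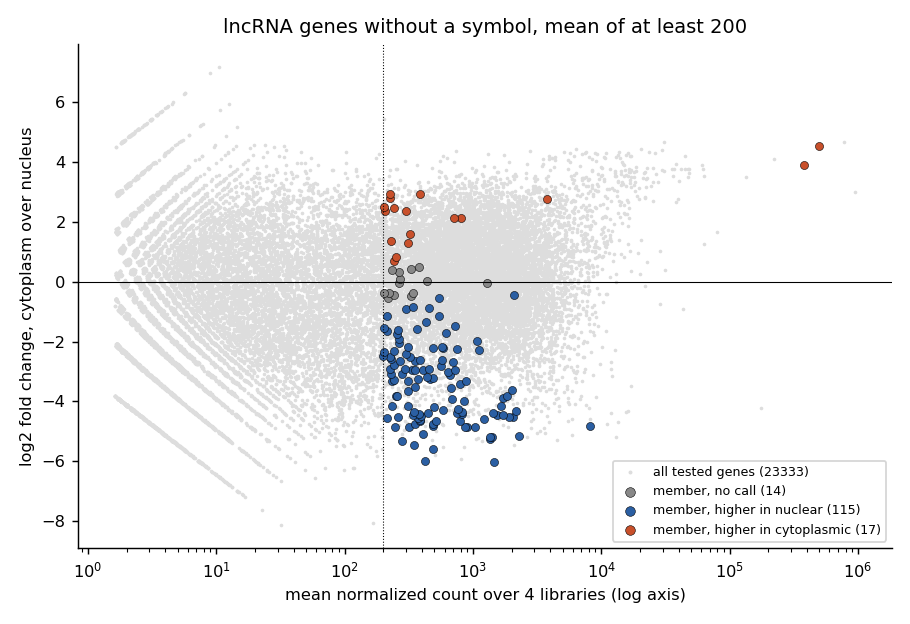
Log2 fold change of cytoplasm over nucleus against the mean normalized count over 4 libraries (log axis) for all 23333 tested genes (grey) and the 146 lncRNA genes without a symbol (coloured by call, dotted line at a mean of 200). The 115 nuclear genes reach -6.02, and the 2 genes that hold RN7SL2 and RPPH1 lie far to the right of the others.

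Well-known lncRNAs were looked up as a check of the fraction labels. Of 5 lncRNAs known from the nucleus, 4 were tested, and MALAT1, NEAT1 and KCNQ1OT1 were higher in the nuclear fraction, at -3.47, -3.09 and -4.25. TUG1 was at 0.91 and was called cytoplasmic. Of 5 lncRNAs known from the cytoplasm, NORAD at 2.20, DANCR at 2.67, OIP5-AS1 at 1.13 and GAS5 at 1.01 were called cytoplasmic, and SNHG1 at -0.21 passed in neither direction. The median of the 146 genes, -2.94, lay beside the value of NEAT1.

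Counts of single libraries could be recovered as whole numbers for 144 of the 146 genes from the authors' mean, fold change and standard error. Which biological replicate a library was is not known, so libraries are named by depth. Between libraries of one fraction the 144 genes differed by a median of 1.09-fold in the nucleus, at most 1.67-fold, and by a median of 1.14-fold in the cytoplasm, at most 1.93-fold. The search let a library lie up to a share of 0.35 from the mean of its fraction, plus an allowance for counting noise. Larger differences could not be found. Both nuclear libraries were above both cytoplasmic libraries for 122 genes and below them for 19, and for 3 genes the fractions overlapped. Of 9584 recovered genes with the same minimum mean, 93.7% did not overlap. A limma fit to the recovered counts called 118 of the 144 genes nuclear and 16 cytoplasmic, beside 40.2% and 38.6% of the 14383 genes in that fit.

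The most abundant of the nuclear genes was ENSG00000259692 (chr15:81633426-82013579, minus strand). It spans 380 kb with 19 exon blocks and its nearest coding gene is MEX3B. It had normalized counts of 16602 and 15224 in the nuclear libraries and of 548 and 569 in the cytoplasmic libraries, a log2 fold change of -4.83 ± 0.12 (SE). The fractions were far apart and the libraries within each were close. ENSG00000234352, which overlaps the muscarinic receptor gene CHRM2 on the opposite strand, had 4515 and 4412 in the nuclear and 127 and 122 in the cytoplasmic libraries, at -5.17. ENSG00000286385 (chr13:82778208-83102335), which lies far from its nearest coding gene SLITRK1, had 4333 and 3856 against 198 and 216, at -4.31. ENSG00000283674 on chromosome 8 was at -4.52.

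The largest nuclear fold changes belonged to genes with few cytoplasmic reads. ENSG00000227681 (chr6:147660703-147953937, plus strand) had 3156 and 2559 normalized counts in the nuclear libraries and 31.7 and 57.0 in the cytoplasmic libraries, so that it was 64.8-fold higher in the nuclear fraction. Its log2 fold change was -6.02 ± 0.39 (SE). It lies over the coding gene SAMD5 on the same strand, which was itself nuclear at -2.13. ENSG00000287621, which lies 91972 bases from its nearest coding gene NUP35, had 902 and 753 in the nuclear libraries against 10.6 and 15.9, at -5.98. The remaining 6 of the 8 lowest were ENSG00000226965 at -5.57, ENSG00000237838 at -5.44, ENSG00000227486 at -5.32, ENSG00000236212 at -5.26, ENSG00000285679 at -5.18 and ENSG00000287862 at -5.17. These 8 were taken for their low fold changes, so that the distance between their fractions follows from the choice. Of the 115 nuclear genes, 98 had a log2 fold change below -2.

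**Figure D3:**
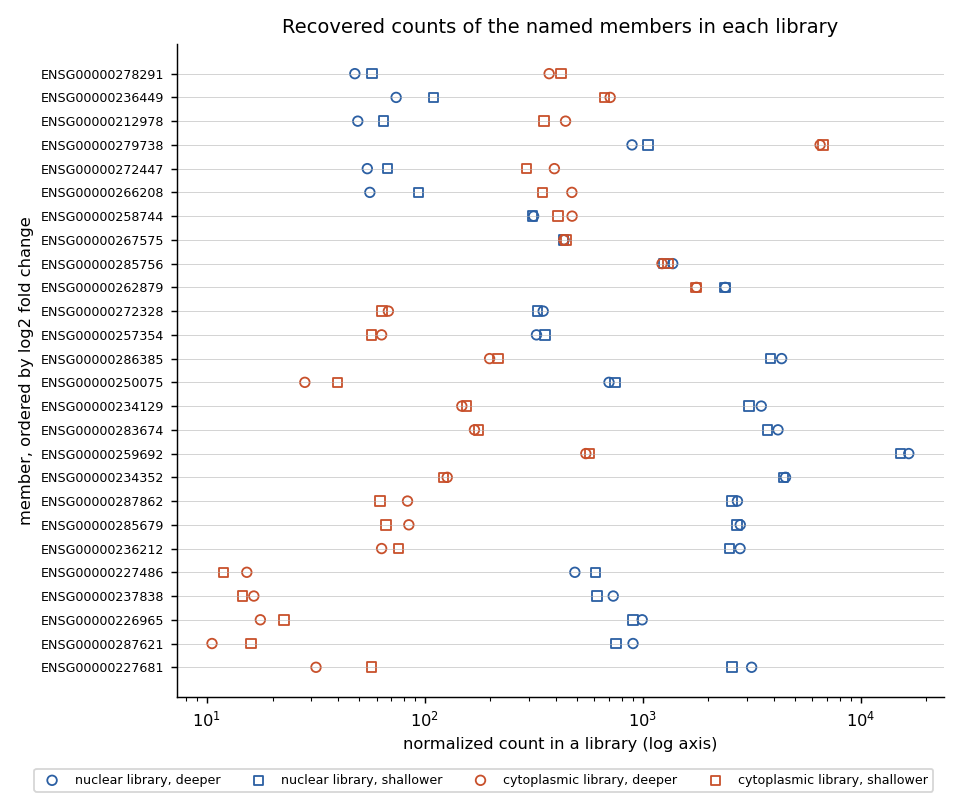
Normalized count (log axis) of each named gene with recovered counts in the 2 nuclear (blue) and 2 cytoplasmic (orange) libraries, circles for the deeper and squares for the shallower library of a fraction, ordered by log2 fold change. Nuclear and cytoplasmic libraries coincide only around ENSG00000285756 and ENSG00000267575 in the middle of the order.

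Among the 17 cytoplasmic genes, 12 had a log2 fold change over 2. After the genes that hold RN7SL2 and RPPH1 the most abundant was ENSG00000279738 (chr22:37876148-37895563, plus strand), a single exon block of 19.4 kb that overlaps EIF3L on the same strand. In GENCODE 44, EIF3L ends inside it at chr22:37889407, and only 6054 bases of the lncRNA gene lie outside every other gene. EIF3L encodes a subunit of translation initiation factor eIF3 and was at 2.30, and the lncRNA gene was at 2.76 ± 0.12 (SE). It had 892 and 1059 normalized counts in the nuclear libraries and 6506 and 6725 in the cytoplasmic libraries. Whether reads of EIF3L transcripts that run on reach the lncRNA gene was not tested.

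The other cytoplasmic genes were less abundant. ENSG00000278291, opposite the cytokine gene IL17D, had 47.7 and 57.2 in the nuclear and 372 and 421 in the cytoplasmic libraries, at 2.92. ENSG00000236449 was at 2.92 as well, with 73.8 and 109 against 708 and 668, and it alone among the cytoplasmic genes spans more than 100 kb. C2orf74-DT (ENSG00000212978) was at 2.81, ENSG00000272447 at 2.50 and GJD3-AS1 (ENSG00000266208) at 2.46.

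The remaining 9 cytoplasmic genes lay between 0.71 and 2.37. ENSG00000278730 (chr17:68126666-68129586, plus strand), a gene with 1 exon block that overlaps no coding gene, had 280 and 323 normalized counts in the nuclear and 1398 and 1198 in the cytoplasmic libraries, at 2.11 ± 0.16 (SE). Other genes, none of them coding, cover all of its bases in GENCODE 44. ENSG00000286388, which starts 98 bases from the coding gene CLPTM1L, had 257 and 274 against 1129 and 1183, at 2.12 ± 0.15 (SE). In both genes each cytoplasmic library was several-fold above each nuclear one. ENSG00000250899 had 89.5 and 106 in the nuclear and 539 and 468 in the cytoplasmic libraries, at 2.37, and lies 761 bases downstream of the transcription factor gene TEAD4, which was at 0.01. ENSG00000260196, opposite the potassium channel gene KCNJ11, had the lowest value, 0.71 ± 0.24 (SE), with 150 and 219 against 310 and 292. Its nuclear libraries were further apart than its cytoplasmic ones.

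The genes at the border of the call and of the rule were looked at next. The 3 genes without a call that had the smallest standard errors were ENSG00000285756 at -0.05, LINC02987 (ENSG00000267575) at 0.02 and ENSG00000258744 at 0.49. LINC02987 had 435 and 432 in the nuclear and 434 and 445 in the cytoplasmic libraries. ENSG00000262879, with a mean of 2073, was called nuclear at only -0.44, with 2389 and 2384 against 1761 and 1759. Just inside the minimum mean stood MIRLET7IHG (ENSG00000257354, the host of a let-7 microRNA) at 200.1, ENSG00000272447 at 201.8 and ENSG00000272328 at 202.1, with log2 fold changes of -2.50, 2.50 and -2.36. Just outside it stood ENSG00000253286, ENSG00000259363 and ENSG00000255234, with means of 197, 195.9 and 195.6 and log2 fold changes of -5.19, -3.53 and -5.57.

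The annotated span went with the fold change. Over the 143 genes with an annotation, the Spearman correlation of span with log2 fold change was -0.718, and that of the intronic share of the span was -0.747, whereas that of exonic length was 0.00515. These correlations describe genes of the same 4 libraries, which are not independent. The lengths are those of whole genes in GENCODE 44, whereas the authors removed stretches shared by genes before counting. Over 124 genes with several exon blocks the correlation with span was -0.63. The same correlation was -0.655 over lncRNA genes with a symbol and -0.743 over protein-coding genes above the minimum mean. All 36 genes of the longest quartile, with spans of 261 to 1013 kb, were called nuclear, with a median of -4.45. Of the 36 in the shortest quartile, with spans up to 14.35 kb, 13 were nuclear and 15 cytoplasmic, with a median of 0.21. The 3 genes that GENCODE 44 does not hold, ENSG00000237838, ENSG00000286699 and ENSG00000239665, were nuclear at -5.44, -2.66 and -0.88 and have no span here. In GENCODE 44, 11 genes have no base free of another gene on either strand, whereas the authors counted on an earlier annotation. Of these, ENSG00000278730, ENSG00000260196, C2orf74-DT, GJD3-AS1 and ZNF584-DT (ENSG00000232098) were cytoplasmic, and ENSG00000228222, ENSG00000267787 and ENSG00000272328 were nuclear. The rest had no call. Because intronic reads were counted, spliced and unspliced RNA cannot be told apart here.

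**Figure D4:**
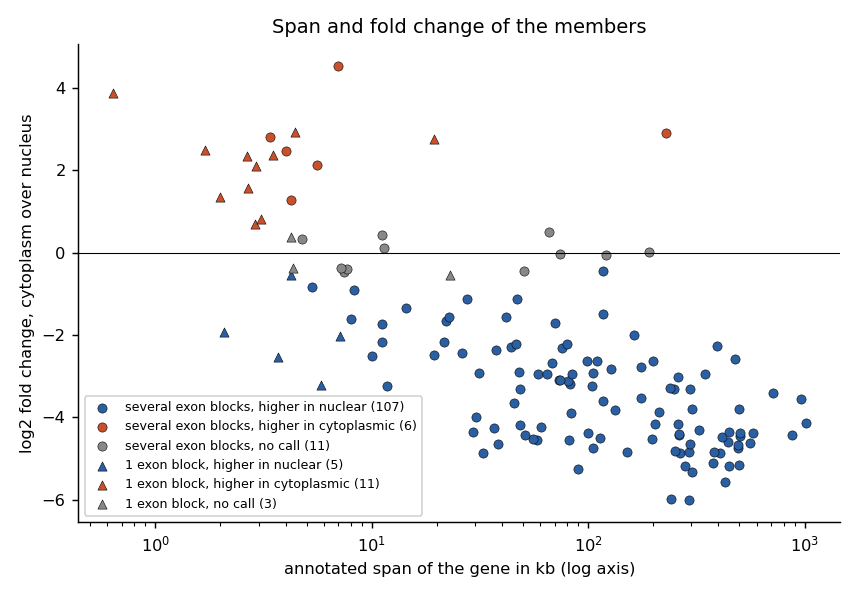
Log2 fold change of cytoplasm over nucleus against annotated span in kb (log axis) for the 143 genes held by GENCODE 44, triangles for genes with 1 exon block and circles for genes with several. Of the 17 cytoplasmic genes (orange), 15 lie in the shortest quartile, and all 36 genes of the longest quartile are nuclear (blue).

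Exon structure divided the genes in the same way. Of 19 genes with 1 exon block, 11 were cytoplasmic and 5 nuclear, with a median of 0.81. Of 124 with several blocks, 6 were cytoplasmic and 107 nuclear, with a median of -3.24. The lncRNA genes with a symbol above the minimum mean included 18 with 1 exon block, whose median was 0.96. The GC content of the exons had a median of 54.7% in the cytoplasmic and 43.1% in the nuclear genes. The canonical poly(A) signal AATAAA, read on the transcript strand only, was found within the last 40 bases of at least 1 annotated transcript in 41.2% of the cytoplasmic and 53.6% of the nuclear genes. Such a share can rise with the number of annotated transcripts, which reached 41 in a nuclear gene and 6 in a cytoplasmic gene. A difference between the groups therefore cannot be read from these shares. Over single transcripts the signal was found in 29.3% of those of the 143 genes with an annotation and in 37.1% of all lncRNA transcripts. Among genes with 1 exon block it lay in the last 40 bases of 3 of 11 cytoplasmic and 2 of 5 nuclear genes. Examples of each are shown on hg38 with the signal in capitals.
ENSG00000278730, cytoplasmic at 2.11 (chr17:68129547-68129586, plus strand): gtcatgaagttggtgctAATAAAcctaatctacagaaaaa
ENSG00000263731, cytoplasmic at 1.58 (chr17:81878425-81878464, minus strand): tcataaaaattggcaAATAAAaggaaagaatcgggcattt
ENSG00000278041, nuclear at -2.53 (chr20:21499261-21499300, minus strand): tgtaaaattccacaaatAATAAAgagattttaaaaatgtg

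Position relative to coding genes was considered last. Each of the 143 genes was put in 1 class, and overlap with a coding gene was taken before a start close to one. RIPK2-DT, for example, counts as overlapping. By class, 55 overlap a coding gene on the opposite strand, and 46 have none of the relations named here to a coding gene. The latter are shown as other intergenic, although 39 of them overlap a gene that is not protein-coding. A further 21, the divergent genes, overlap no coding gene and start within 1 kb of one that runs the other way. Another 14 overlap a coding gene on the same strand, and 7 lie within 5 kb downstream of one on that strand. The medians were -2.64, -3.74, -3.10, -2.26 and -0.84, and nuclear calls were 41, 40, 17, 10 and 4. Each class held at least 2 cytoplasmic genes.

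**Figure D5:**
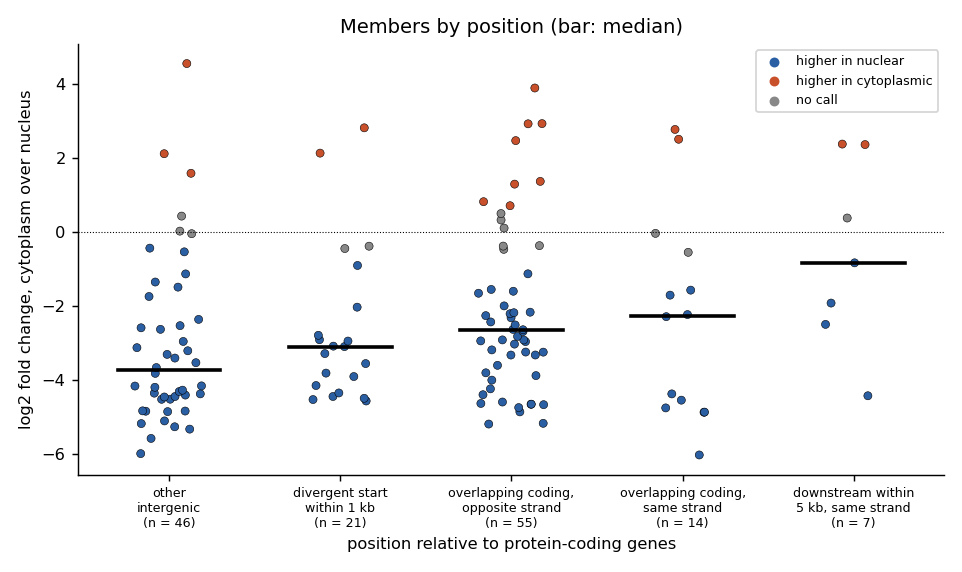
Log2 fold change of cytoplasm over nucleus for the 143 genes by position relative to protein-coding genes, with 1 point per gene coloured by call and a bar at the median of each class. Nuclear genes (blue) are the majority in each class, with 4 of 7 in the downstream class.

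The divergent genes were set beside the coding gene that starts next to them. Of the 21 coding partners, 11 were cytoplasmic and 8 nuclear, with a median of 0.51, against -3.10 for the lncRNA genes, and the lncRNA gene had the lower value in 18 of 21 pairs. Of all protein-coding genes above the minimum mean 46.0% were cytoplasmic and 33.3% nuclear. Their median was 0.27, against -2.94 for the 146 genes, so counts of pairs with a lower lncRNA gene cannot be read as a feature of neighbours. Pairs with unrelated coding genes were not tested. The lncRNA gene was also the lower in 56 of 69 pairs with a coding gene that it overlaps on the opposite strand, where the medians were -2.69 and -0.43. These 69 pairs came from 48 lncRNA genes, some of them counted with several coding genes. In 21 of the 69 the coding gene had no call, and its standard error reached 2.5. HCCS-DT (ENSG00000234129), with the highest mean of the divergent class, had 3495 and 3078 in the nuclear and 148 and 155 in the cytoplasmic libraries, at -4.44. Its partner HCCS, a mitochondrial heme lyase, was at 1.78. MAD2L1-DT was at -3.81 beside 1.79 for the spindle checkpoint gene MAD2L1, and ENSG00000254186 was at -4.15 beside 3.15 for the cyclin gene CCNG1. ENSG00000226471 was at -2.91 beside 2.44 for XBP1, a transcription factor of the unfolded protein response. Both sides of a pair could also be nuclear, as for ENSG00000242880 at -4.49 beside the transcription factor gene ZBTB20 at -4.48. C2orf74-DT went the other way, at 2.81 beside -0.67 for C2orf74. Over the 21 divergent pairs the Spearman correlation was -0.013. It was 0.217 over the 69 opposite-strand pairs, 0.5 over 9 same-strand pairs and 0.429 over 7 downstream pairs. Of the 7 downstream genes, ENSG00000250075 had the highest mean and was at -4.42 beside -1.66 for the centromere protein gene CENPC, and ENSG00000288398 was at 2.36 beside 1.78 for CPLANE2.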

How the data were processed

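RNA of nuclear and cytoplasmic fractions was measured in 4 libraries. The authors aligned reads to hg38 with STAR and counted them over exons and introns with featureCounts 2.0.2 on a GENCODE 34 annotation from which stretches shared by genes and readthrough transcripts had been removed. The deposited mean normalized count is a signal that the authors averaged over all libraries after division by DESeq2 size factors. The deposited fold change and its standard error are on the log2 scale, the deposited Wald statistic is a score, and the deposited p-value was adjusted by the authors with the Benjamini-Hochberg method over 23333 tested genes. The score differed from fold change over standard error by at most 1.79e-07. Those columns are the authors' own comparison and are the source of the calls here (adjusted p-value up to 0.01).

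Counts of single libraries were recovered as whole numbers that reproduce mean, fold change and standard error together (largest difference 4.35e-07 on the log2 scale over 144 genes, 136 with 1 solution). In data simulated from recovered genes with the model that the search assumes, 1000 of 1000 genes were recovered right. That tests the search only, and not whether the deposited values follow the model. Of all tested genes, 87.3% were recovered, where most genes with a mean over 3000 were not searched. Size factors were 1.34 and 1.19 for the nuclear and 0.853 and 0.755 for the cytoplasmic libraries. Recomputed as medians of ratios over the recovered counts, they were 1.37, 1.21, 0.846 and 0.739. Replicates differed by more than sampling noise (chi-square per gene 8.12 nuclear and 6.28 cytoplasmic over 9584 genes), and the p-values rest on only 2 libraries per fraction. The standard error of a gene did not simply follow the spread between its own libraries. In ENSG00000262879 the libraries differed by 1.002-fold in the nucleus and 1.001-fold in the cytoplasm. In ENSG00000259692 they differed by 1.09-fold and 1.04-fold, and the standard error was 0.116 for both genes. limma 3.58.1 (trend, log2 of normalized count plus 1, minimum mean of 20) on the recovered counts was an alternative, tested on simulated data. Features came from GENCODE 44. The named genes were the 8 largest and 8 smallest fold changes among called genes, the 8 highest means, the 3 genes on each side of the minimum mean, the highest mean of each position class and the 3 uncalled genes with the smallest standard errors. Others, such as further divergent pairs, were chosen after their values were seen. The genes and lists were chosen with earlier results of these data known.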

Additional observations from a re-analysis of the deposited data

How the results depend on the processing

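Calls kept their direction under the alternatives run. With equal library totals, which lower every log2 fold change by 0.66, 130 of the 132 calls were kept, nuclear calls rose to 124 and the median of the 146 genes was -3.61. Centring on the protein-coding median, 0.11, kept 131. Counts moved by over 1.5 times where the rule itself was changed. With a minimum mean of 100 there were 219 nuclear and 42 cytoplasmic genes and a median of -2.62, and with a minimum of 500 there were 48 and 5 and a median of -3.85. Without genes that overlap a coding gene, 64 nuclear and 7 cytoplasmic genes were left, with a median of -3.28. The counts follow from the number of genes left, and the cause of the change in the medians was not tested. LINC02987 (ENSG00000267575) changed sign to -0.64 with equal totals, where it became a nuclear call (adjusted p = 0.000424, recomputed from the DESeq2 standard errors), and to -0.09 with centring, and ENSG00000258744 changed sign to -0.17 with equal totals. ENSG00000285756, with no call as deposited, became nuclear at -0.71 with equal totals (adjusted p = 1.92e-07, recomputed in the same way). limma on the recovered counts, chosen after the data were seen, called 118 nuclear and 16 cytoplasmic genes of 144 and kept all 130 calls. Leaving out each library in turn gave 115 to 117 nuclear and 15 to 16 cytoplasmic genes and medians of -3.03 to -2.91, the lone library of a fraction being assumed to vary like the others. The call of ENSG00000260196 was lost without the deeper nuclear library and that of ENSG00000268205 without the shallower library of either fraction, and 0 of the 130 changed sign. No paired analysis was possible because the recovered libraries carry no replicate number. The planned edgeR and DESeq2 refits were not run. Depth limited no fraction mean to the floor of 3 counts, the lowest being 13.1.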
